A study of Arabidopsis thaliana with 10 samples.

Results

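A set of 89 *Arabidopsis thaliana* genes was at least 8 times higher in triploid than in diploid seeds and stayed near the triploid level when the pollen also carried *adm-2*, *suvh7-1* or *peg2*. The rule used group means. For each group, m is the mean of its 2 libraries plus 0.1, in RPKM (the reads of a gene divided by its length in kilobases and by the size of the library). A gene was taken when m was at least 2.1 in triploid seeds and at least 8 times m of diploid seeds, and when m in each of the 3 mutant groups lay between 0.75 and 1.33 times m of triploid seeds. Of 33602 listed genes, 610 met the first part, here called the raised genes, and 89 of these (14.6%) stayed in the band in all 3 mutants. The means of all 5 groups chose the genes, so every level and fold change of the 89 below describes the choice and carries no test.

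RNA was sequenced from whole seeds harvested at 6 days after pollination (DAP), from 20 siliques per library, with 2 libraries in each of 5 groups. Every mother plant was wild type Landsberg (L*er*). Triploid *adm-2*, triploid *suvh7-1* and triploid *peg2* seeds had Columbia (Col) fathers mutant for *osd1* and for *adm-2*, *suvh7-1* or *peg2*, triploid seeds (3n) had Col fathers mutant for *osd1* alone, and diploid seeds (2n) had wild type Col fathers. The *osd1* mutation was found in the Nossen strain and brought into Col by backcrossing. All 4 triploid groups thus share the *osd1* allele, so that ploidy, this allele and any Nossen sequence left beside it cannot be told apart in the comparison with diploid seeds. The mutant alleles came through the pollen only, and the maternal copy of each gene was wild type. Nothing in the labels says more of the replicates than that they were harvested in duplicate, and the spread between them covers these seed pools only.

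Each library summed to between 700509 and 743974 RPKM over all genes, of which ribosomal RNA took 9.24% to 17.3%. The highest share was in replicate 1 of triploid seeds, and replicate 2 of triploid seeds had 10.1%. Every ratio to triploid seeds rests on these 2 libraries, and the part of this difference in the ratios was not tested. The table holds no read counts. What a single read adds to a value was worked out from the gaps between low values and came out at 0.0141 to 0.0187 RPKM for a gene of 1 kb. This figure is approximate, because only 44.8% to 49% of low values lay within 0.05 of a whole read. Each targeted gene was lower in its own mutant than in triploid seeds. *ADM* was at 0.251 and 0.237 RPKM in triploid *adm-2* seeds and at 2.42 and 4.01 in triploid seeds. *SUVH7* was at 0.64 and 0.956 RPKM in triploid *suvh7-1* seeds and at 3.09 and 3.16 in triploid seeds. *PEG2* was at 0.238 and 0.0808 RPKM in triploid *peg2* seeds and at 3.54 and 4.1 in triploid seeds, and *OSD1* was at 1.91 and 1.38 RPKM in triploid seeds and at 8.83 and 7.02 in diploid seeds. The mutants did not differ from triploid seeds in the labelled gene alone. *PEG2* was also low in triploid *adm-2* (1.34 and 0.908 RPKM) and triploid *suvh7-1* seeds (0.646 and 0.605 RPKM), and *ADM* in triploid *suvh7-1* seeds (0.758 and 0.706 RPKM). *OSD1* was higher in triploid *adm-2* (3.35 and 2.94 RPKM) and triploid *suvh7-1* seeds (2.57 and 3.03 RPKM) than in triploid seeds, though all carry the *osd1* allele. In triploid *peg2* seeds it was at 0.864 and 1.67 RPKM.

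The endosperm is the tissue that feeds the embryo. It first grows as a syncytium, in which nuclei divide without walls between them, and later forms cells. When the father gives extra genomes, as *osd1* pollen does, cellularization is late or fails and the seed tends to abort, which is known as the triploid block. *ADM*, *SUVH7* and *PEG2* are paternally expressed imprinted genes (*PEGs*). The study sequenced these mutants to see if the rescue of triploid seeds goes along with lower levels of *PEGs* and of AGAMOUS-LIKE MADS-box genes. The largest families among the 89 genes act in protein turnover and in transcription. In an SCF ubiquitin ligase a cullin forms the scaffold, a RING protein brings in the enzyme that carries ubiquitin, a SKP1-like protein forms the adaptor, and an F-box protein holds the target.

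The bases before the start of 4 of the genes are shown because they belong to the SCF parts described below or to their closest neighbour. They are the 250 bases upstream of the annotated RefSeq gene start in TAIR10.1, whose nuclear chromosomes are those of TAIR10. *MEO* (AT2G20160), a SKP1-like gene, starts at the end of chr2:8700187-8700436 (minus strand), and AT2G20170, which encodes a DUF239 protein, starts after chr2:8700763-8701012 (plus strand). The starts of these neighbours face each other across 827 bases with no annotated gene between them. The window of *CUL2* (AT1G02980), a cullin, is chr1:677110-677359 (plus strand), and that of AT3G42830, a RING protein, is chr3:14930679-14930928 (minus strand). Capitals mark TATAAA, the core of the TATA box, read on either strand (TTTATA on the reverse).
MEO: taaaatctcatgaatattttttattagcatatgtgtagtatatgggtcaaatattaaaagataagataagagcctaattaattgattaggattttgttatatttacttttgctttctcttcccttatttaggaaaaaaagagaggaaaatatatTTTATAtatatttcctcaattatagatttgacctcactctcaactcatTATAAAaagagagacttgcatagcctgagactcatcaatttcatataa
AT2G20170: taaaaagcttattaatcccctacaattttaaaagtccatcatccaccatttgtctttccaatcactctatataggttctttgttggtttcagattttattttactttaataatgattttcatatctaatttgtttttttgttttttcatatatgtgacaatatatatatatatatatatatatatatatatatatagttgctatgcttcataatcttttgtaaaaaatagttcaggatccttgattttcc
CUL2: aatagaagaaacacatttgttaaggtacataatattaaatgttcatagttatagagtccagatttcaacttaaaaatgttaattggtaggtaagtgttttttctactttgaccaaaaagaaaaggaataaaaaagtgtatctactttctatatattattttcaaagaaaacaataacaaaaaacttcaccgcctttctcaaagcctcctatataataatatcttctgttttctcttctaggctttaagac
AT3G42830: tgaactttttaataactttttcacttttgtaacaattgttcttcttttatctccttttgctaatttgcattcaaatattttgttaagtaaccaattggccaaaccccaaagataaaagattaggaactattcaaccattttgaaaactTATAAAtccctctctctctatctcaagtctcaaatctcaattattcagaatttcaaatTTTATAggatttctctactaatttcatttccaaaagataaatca
*MEO* held TATAAA at 96 (reverse strand) and 48 bases before its start, and AT3G42830 held it at 102 and 44 bases (reverse strand) before its start. The letters were found in neither of the other sequences. In windows of 300 bases, from 250 before to 50 after the start, TATAAA on either strand was in 65 of the 89 genes (73.0%), in 71.9% of the other raised genes with a promoter window and in 50.05% of all 32834 windows. The G-box CACGTG was in 4.49% of the 89 windows (AT1G09510, AT2G01810, *ARI11* and AT4G04580), in 2.12% of the other raised and in 6.90% of all windows. The seed motif CATGCA was in 4.49% (AT1G27250, AT2G20170, AT4G28775 and AT5G03020), 10.8% and 10.4% of them. AGAAA was in 88.8%, 89.6% and 87.6%, and the CArG box, the site of MADS proteins, was in 2.25% (AT1G09510 and AT5G17470), 2.88% and 2.80%. The shares for TATAAA were higher in both sets of raised genes than in all windows, and those for AGAAA and the CArG box were nearly level.

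Mean levels of the 89 genes in triploid seeds ran from 2.36 to 414 RPKM with a median of 14.6, and those in diploid seeds from 0.0118 to 27.0 RPKM with a median of 0.702. The ratio of m in triploid to diploid seeds ran from 8.09 to 99.9, with a median of 16.6. In all 89 genes the lowest of the 8 triploid libraries, mutants included, lay above the higher diploid library, as it did in 17% of 28055 genes above 0, and nothing is read from this count, which the rule all but fixes. Summed, they came to 3048 to 3775 RPKM in the 8 triploid libraries (0.425% to 0.513% of the library) and to 175 and 196 RPKM in the diploid libraries (0.0250% and 0.0279%). The highest of the 8 triploid libraries was 1.19 to 2.31 times the lowest, with a median of 1.46. The median log2 fold change, as a difference of means of log2(RPKM + 0.1), was 4.07 for the 89 genes, 4.84 for the other 521 raised genes and 0.00 for all genes above 0.

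**Figure D1:**
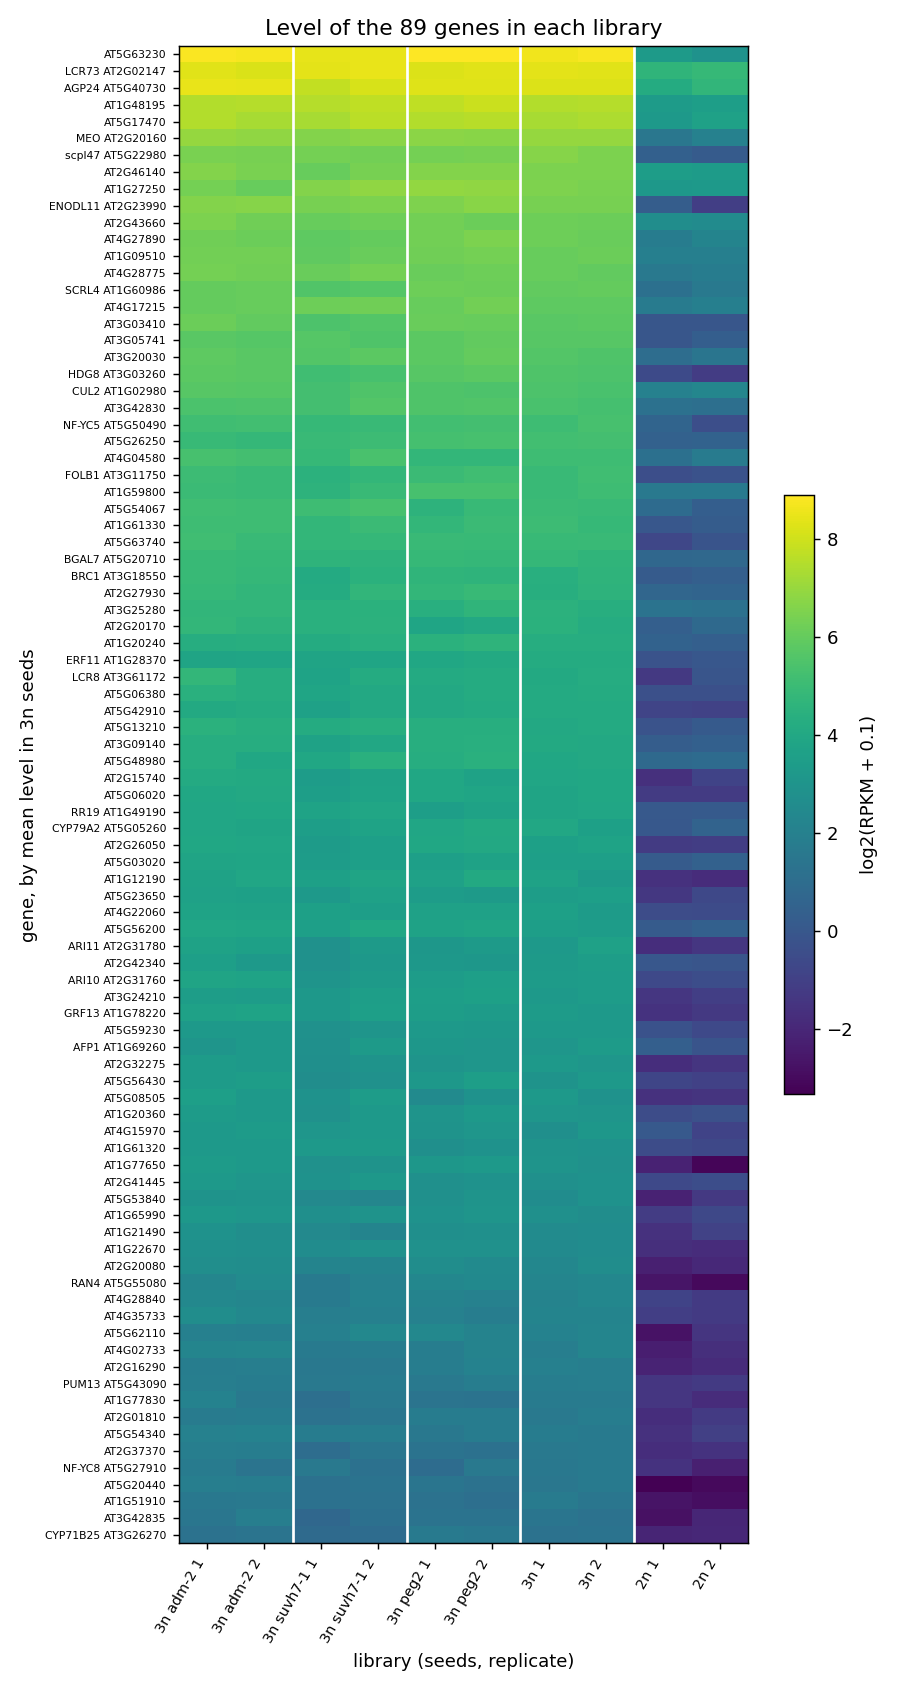
Level of each of the 89 genes (rows, from the highest to the lowest mean in triploid seeds) in each of the 10 libraries (columns), as log2(RPKM + 0.1). The 8 columns of triploid seeds look alike within a row, and both diploid columns are darker in all 89 rows.

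The test of the study, the rank product (genes ranked by fold change in each pair of libraries, with a false prediction rate, pfp, under 0.05, and here a log2 fold change past 1), called 3 of the 89 genes up in triploid seeds, beside 0.538% of 28055 genes. The 3 called were *ENODL11*, *HDG8* and *scpl47*, which have the 3 largest ratios. With limma, a linear model fitted to each gene with a shared estimate of spread, 89 of 89 were up at an adjusted p under 0.05 and a log2 fold change past 1, beside 9.53% of 26601 genes. Nothing is read from either count, since the rule used this comparison.

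The gene with the highest level was AT5G63230, which encodes a protein with an X8 domain, a module that binds the cell wall polymer callose. It had 451 and 420.2 RPKM in triploid *adm-2*, 349.7 and 363 in triploid *suvh7-1*, 474 and 463 in triploid *peg2* and 398 and 431 in triploid seeds, against 10.04 and 7.45 RPKM in diploid seeds. *LCR73*, a member of the low-molecular-weight cysteine-rich peptides related to defensins, had 326 and 298 RPKM in triploid *adm-2*, 332 and 356 in triploid *suvh7-1*, 299.9 and 328 in triploid *peg2* and 336 and 326 in triploid seeds, against 25.6 and 28.5 RPKM in diploid seeds. Of the 89 genes *LCR73* was the steadiest across triploid libraries, with its highest of 8 libraries at 1.19 times the lowest. *AGP24*, for an arabinogalactan protein of the cell surface, had 357 and 349 RPKM in triploid *adm-2*, 221 and 280.1 in triploid *suvh7-1*, 312 and 312 in triploid *peg2* and 302 and 307 in triploid seeds, against 17.9 and 26.3 RPKM in diploid seeds. Both of its *suvh7-1* libraries lay below the triploid libraries, and all *adm-2* and *peg2* libraries above them.

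AT1G48195, for a protein with a CCCH zinc finger, had 177 and 184 RPKM in triploid *adm-2*, 185 and 211 in triploid *suvh7-1*, 210.2 and 243 in triploid *peg2* and 181 and 184 in triploid seeds, against 10.1 and 11.3 RPKM in diploid seeds. Both *peg2* libraries stood above the triploid libraries. AT5G17470, an EF hand calcium-binding protein, had 178 and 159 RPKM in triploid *adm-2*, 157 and 199 in triploid *suvh7-1*, 179 and 194 in triploid *peg2* and 155 and 166 in triploid seeds, against 9.46 and 12.7 RPKM in diploid seeds. The *adm-2* and *suvh7-1* libraries overlapped with those of triploid seeds, and both *peg2* libraries were above them. *scpl47*, a serine carboxypeptidase-like enzyme gene, had 86.7 and 83.5 RPKM in triploid *adm-2*, 80.9 and 78.1 in triploid *suvh7-1*, 81.4 and 83.6 in triploid *peg2* and 102 and 89.5 in triploid seeds, against 1.25 and 1.03 RPKM in diploid seeds. All 6 mutant libraries were below the triploid libraries. AT2G46140, annotated as a late embryogenesis abundant protein, had 98.3 and 87.2 RPKM in triploid *adm-2*, 66.8 and 83.6 in triploid *suvh7-1*, 97.2 and 98.4 in triploid *peg2* and 90.4 and 90.7 in triploid seeds, against 10.9 and 10.5 RPKM in diploid seeds, and its ratio to diploid seeds, 8.42, was close to the limit of 8.

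The largest ratio, 99.9, belonged to *ENODL11*, an early nodulin-like protein related to plastocyanins, with 99.5 and 103 RPKM in triploid *adm-2*, 83.6 and 89 in triploid *suvh7-1*, 91 and 104 in triploid *peg2* and 83.9 and 84.1 in triploid seeds, against 1.1 and 0.383 RPKM in diploid seeds. On the log2 scale the difference came to 6.79 ± 0.34 (limma, ± SE). *HDG8*, a homeodomain leucine zipper transcription factor of the GLABRA2 class, had 55.7 and 53.8 RPKM in triploid *adm-2*, 35.4 and 40.3 in triploid *suvh7-1*, 52.1 and 55.9 in triploid *peg2* and 45.7 and 44.9 in triploid seeds, against 0.573 and 0.347 RPKM in diploid seeds. Its *suvh7-1* libraries were the lowest and its *adm-2* and *peg2* libraries the highest of the triploid groups. AT3G03410, another EF hand protein, had 69.8 and 61.1 RPKM in triploid *adm-2*, 45.1 and 49 in triploid *suvh7-1*, 67.8 and 66.2 in triploid *peg2* and 54.9 and 56.9 in triploid seeds, against 0.857 and 0.852 RPKM in diploid seeds, a ratio of 58.7, and here too the *suvh7-1* libraries were the lowest and the *adm-2* and *peg2* libraries the highest. AT3G05741, of the pectin methylesterase inhibitor family, had 55 and 50.9 RPKM in triploid *adm-2*, 51.3 and 46.3 in triploid *suvh7-1*, 56.9 and 62.9 in triploid *peg2* and 51.9 and 53.4 in triploid seeds, against 0.863 and 1.17 RPKM in diploid seeds. All *suvh7-1* values lay under those of triploid seeds, and both *peg2* values lay over them.

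Of the 610 raised genes, 295 had a mean below the band in *adm-2*, 274 in it and 41 above it. In *suvh7-1* 436 were below, 147 in and 27 above, and in *peg2* 84 were below, 461 in and 65 above. The share in the band was therefore 44.9% in *adm-2*, 24.1% in *suvh7-1* and 75.6% in *peg2*, and *suvh7-1* set the narrowest condition. In the band in *peg2* alone were 220 raised genes, in *adm-2* and *peg2* 118, in *adm-2* alone 47, in *suvh7-1* and *peg2* 34, in *adm-2* and *suvh7-1* 20, in *suvh7-1* alone 4 and in none 78. These groups share the triploid libraries, so that the bands are not independent of each other.

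**Figure D2:**
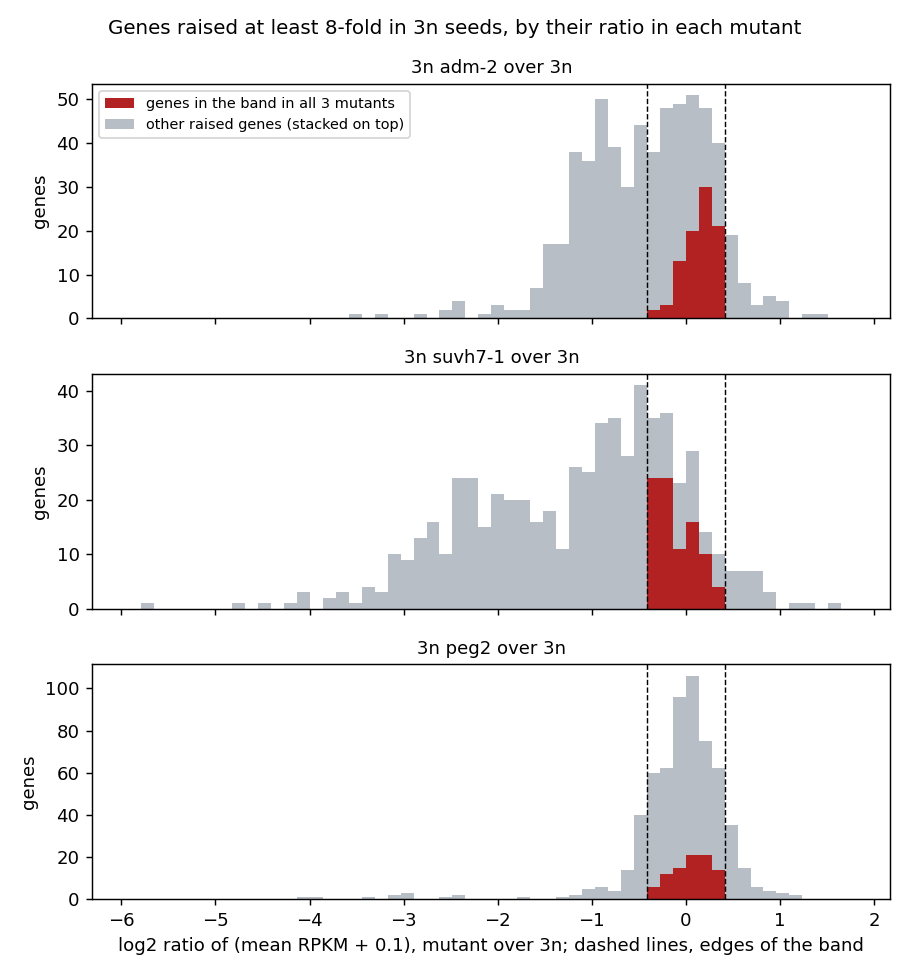
Histograms of the log2 ratio of m in each mutant to m in triploid seeds (x axis) over the 610 raised genes (y axis, number of genes), with the 89 genes in red, the other 521 stacked on them in grey and the edges of the band as dashed lines. Most of the grey genes in *suvh7-1* lie left of the band and most in *peg2* within it. The red genes lie on both sides of the triploid level, more of them above it in *adm-2* (71 of 89) and more below it in *suvh7-1* (59 of 89).

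Inside the band the 89 genes were not centred on the triploid level. The ratio to triploid seeds had a median of 1.13 in *adm-2* (71 genes above 1, 18 below), 0.892 in *suvh7-1* (30 above, 59 below) and 1.06 in *peg2* (56 above, 33 below). As median log2 fold changes, *adm-2* gave 0.18 for the 89 genes, -0.53 for the other raised genes and 0.09 for all genes. With libraries rescaled by size factors, which put the median of all genes at 0.00, the *adm-2* value became 0.07, with 54 genes higher and 35 lower. In *suvh7-1* the medians were -0.18, -1.14 and -0.03, and without replicate 1 of *suvh7-1* the median of the 89 genes was -0.08. In *peg2* they were 0.08, -0.01 and -0.01. 

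Both *adm-2* libraries lay above both triploid libraries in 53 of the 89 genes, beside 36.9% of 28055 genes, and below them in 5, beside 14.9%. The 5 were *scpl47*, AT1G27250, AT5G26250, *ERF11* and AT5G62110. Both *suvh7-1* libraries lay above in 9 genes, beside 18.5%, and below in 43, beside 24.4%. Both *peg2* libraries lay above in 37 genes, beside 11.5%, and below in 18, beside 18.7%. The 89 genes thus stayed within a band around the triploid level and are not shown to be unaffected by the mutations, and nothing more is read from these counts, since the rule used the same means. The rank product with a log2 fold change past 1 called 0 of the 89 in each mutant, beside 0.374%, 0.713% and 0.303% of 28055 genes in *adm-2*, *suvh7-1* and *peg2*, and limma with the same fold called 0, beside 3.39%, 4.97% and 0.207% of 26601. The band fixes these counts at 0.

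At any fold, limma with an adjusted p under 0.05 called 2 of the 89 in *adm-2* (*ERF11* and AT5G26250), 1 in *suvh7-1* (*ERF11*) and 0 in *peg2*, beside 9.98%, 9.14% and 0.241% of genes. At an unadjusted p under 0.05 it called 17, 16 and 15, beside 28.0%, 23.1% and 8.63%, and the rank product called 0, 0 and 3 (AT1G27250, AT2G27930 and AT5G48980), beside 15.9%, 14.7% and 11.9%. *ERF11*, an ethylene response factor that acts as a repressor, had 14 and 14.4 RPKM in triploid *adm-2*, 14 and 14.2 in triploid *suvh7-1*, 15.5 and 17 in triploid *peg2* and 18 and 18.5 in triploid seeds, against 0.771 and 0.884 RPKM in diploid seeds. All 6 mutant libraries lay below the triploid libraries. AT5G26250, a transporter of the major facilitator superfamily, had 29.8 and 27.8 RPKM in triploid *adm-2*, 30.6 and 32.7 in triploid *suvh7-1*, 39 and 39.9 in triploid *peg2* and 36.4 and 37.1 in triploid seeds, against 1.26 and 1.34 RPKM in diploid seeds. Its *adm-2* and *suvh7-1* libraries were below, and its *peg2* libraries above, those of triploid seeds.

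The genes with all 3 ratios closest to 1 were *LCR73*, AT5G23650, *BGAL7* and AT5G63740. AT5G23650, a homeodomain-like regulator, had 12.4 and 12.2 RPKM in triploid *adm-2*, 9.65 and 12.7 in triploid *suvh7-1*, 10.8 and 9.84 in triploid *peg2* and 10.9 and 11.7 in triploid seeds, against 0.293 and 0.529 RPKM in diploid seeds. *BGAL7*, a beta-galactosidase that trims wall sugars, had 30.1 and 28.8 RPKM in triploid *adm-2*, 24.7 and 23.7 in triploid *suvh7-1*, 28.5 and 27.7 in triploid *peg2* and 27.9 and 25.2 in triploid seeds, against 1.59 and 1.65 RPKM in diploid seeds. AT5G63740, a RING protein, had 35.1 and 31.1 RPKM in triploid *adm-2*, 26.9 and 27.7 in triploid *suvh7-1*, 31.2 and 30.3 in triploid *peg2* and 30.2 and 30.6 in triploid seeds, against 0.498 and 0.788 RPKM in diploid seeds. In each of these genes the ratio in the 3 mutants stayed between 0.898 and 1.11.

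By the words of their annotated products, the 89 genes held more F-box proteins and transcription factors, and fewer small secreted peptides, than the other raised genes. These shares are counts with no test. F-box proteins, matched by the words F-box or FBD, made up 12 of 89 genes (13.5%), 23 of 521 other raised genes (4.41%) and 1.97% of all listed genes. Products matched as transcription factors made up 19 (21.3%), 5.37% and 5.05%, and defensin-like and other cysteine-rich peptides 4 (4.49%), 13.2% and 1.51%. The transcription factor words include MADS but not AGAMOUS-like, auxin response factor or LOB, so genes annotated by those names alone were not counted. Genes with such names, as *AGL58*, *AGL96*, *ARF12* and *LBD35*, are among the other raised genes, whose share may therefore be too low. Genes of pectin enzymes and inhibitors were 1 (1.12%, AT3G05741), 4.80% and 0.729%. ECA1 gametogenesis proteins, lipid transfer proteins and protease inhibitors were 0 of the 89 and 12 (2.30%), 9 (1.73%) and 6 (1.15%) of the other raised genes. At shares this small a set of 89 would hold few, so nothing is read from the zeros. Transposable element genes were 0 in both.

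**Figure D3:**
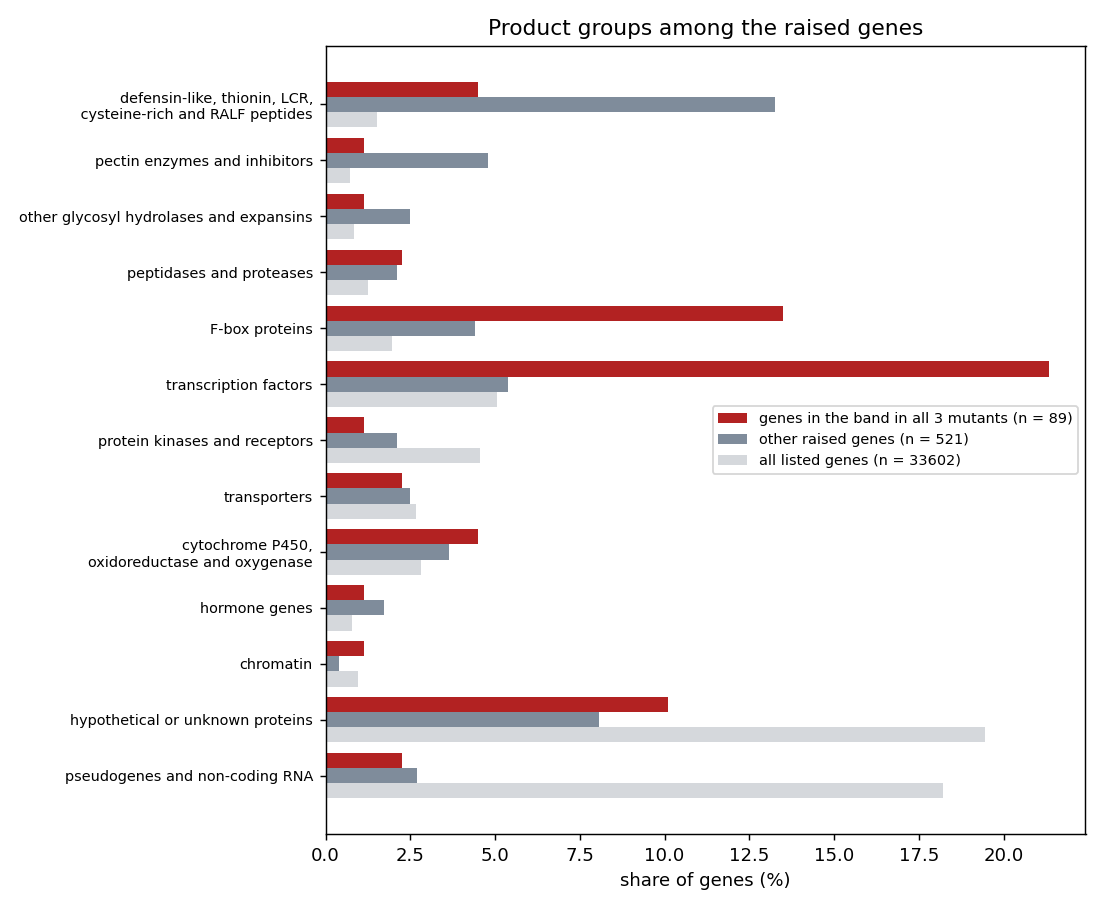
Share of genes (x axis, %) in each product group (y axis) among the 89 genes (red, top bar), the other 521 raised genes (dark grey) and all 33602 listed genes (light grey, bottom bar). Transcription factors (21.3%) and F-box proteins (13.5%) have the longest red bars, cysteine-rich peptides (13.2%) have the longest dark grey one, and groups that hold none of the 89 are not drawn.

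Among the F-box proteins, which choose the targets of SCF ligases, AT3G20030 had the highest level, with 57.3 and 54.7 RPKM in triploid *adm-2*, 48.5 and 56.1 in triploid *suvh7-1*, 55.7 and 64.3 in triploid *peg2* and 49.3 and 45.5 in triploid seeds, against 1.98 and 2.55 RPKM in diploid seeds. Its *adm-2* and *peg2* libraries were all above the triploid libraries, while *suvh7-1* overlapped with them. AT1G61330 had 34.5 and 34.4 RPKM in triploid *adm-2*, 27.4 and 31.4 in triploid *suvh7-1*, 27.4 and 31.9 in triploid *peg2* and 32.6 and 29.2 in triploid seeds, against 0.883 and 1.06 RPKM in diploid seeds, and AT1G12190 had 13.1 and 15.1 RPKM in triploid *adm-2*, 12.3 and 14.1 in triploid *suvh7-1*, 12.4 and 16.9 in triploid *peg2* and 12.9 and 9.86 in triploid seeds, against 0.238 and 0.19 RPKM in diploid seeds. The triploid libraries of AT1G12190 were 26.4% of their mean apart, among the widest gaps in the set. The other 9 were AT1G20360, AT1G61320, AT1G77650, AT2G16290, AT4G02733, AT4G22060, AT4G35733, AT5G53840 and AT5G56430, with mean levels in triploid seeds of 3.77 to 11.2 RPKM. The annotation of AT1G61320 names FBD and leucine-rich repeat domains but no F-box, and that of AT1G77650 calls it F-box associated. AT1G77650 had the largest ratio of the 12, 45.7, with 10.4 and 9.54 RPKM in triploid *adm-2*, 7.1 and 7.64 in triploid *suvh7-1*, 8.66 and 9.78 in triploid *peg2* and 7.89 and 7.26 in triploid seeds, against 0.123 and 0.0133 RPKM in diploid seeds. The diploid values rest on about 11 reads in all by the estimate above. Of 543 F-box genes tested over the whole genome, limma called 167 up (30.8%) and 17 down in triploid seeds, beside 9.53% of all genes up.

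The other parts of ubiquitin ligases were grouped after their presence had been seen. They made up 10 of the 89 genes (11.2%), 2.30% of the other raised and 1.62% of all genes. *MEO*, the SKP1-like adaptor, had 126 and 115 RPKM in triploid *adm-2*, 97.3 and 111 in triploid *suvh7-1*, 111 and 105 in triploid *peg2* and 126 and 123 in triploid seeds, against 2.78 and 4.06 RPKM in diploid seeds. Its *suvh7-1* and *peg2* libraries were all below the triploid libraries, and its *adm-2* libraries overlapped with them. *CUL2* had 53 and 50.6 RPKM in triploid *adm-2*, 38.3 and 45.5 in triploid *suvh7-1*, 45.5 and 44.2 in triploid *peg2* and 44.9 and 41.9 in triploid seeds, against 4.01 and 4.78 RPKM in diploid seeds. Both *adm-2* libraries were above the triploid libraries, and the other mutants overlapped with them. AT1G59800, another cullin, had 32.3 and 30.7 RPKM in triploid *adm-2*, 24 and 30.9 in triploid *suvh7-1*, 39.9 and 40.01 in triploid *peg2* and 30.5 and 34.5 in triploid seeds, against 2.96 and 3.04 RPKM in diploid seeds, with *peg2* highest. AT3G42830, a RING protein of the RBX1 type, had 42.4 and 44.9 RPKM in triploid *adm-2*, 38.3 and 49.7 in triploid *suvh7-1*, 45.8 and 47.2 in triploid *peg2* and 42.3 and 39.2 in triploid seeds, against 2.27 and 2.12 RPKM in diploid seeds. By annotation, a representative of each SCF position, adaptor, scaffold, RING and F-box, was thus among the 89. The protein of AT1G59800 is annotated at 255 amino acids and that of *CUL2* at 742. Whether any of these products work in the same complex was not tested.

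The best known parts of the same complex differed far less between ploidies. *CUL1*, the main scaffold of SCF ligases, had 71.4 and 70.5 RPKM in triploid *adm-2*, 74.3 and 68.2 in triploid *suvh7-1*, 76 and 73.1 in triploid *peg2* and 74.1 and 78.5 in triploid seeds, against 67.3 and 70.1 RPKM in diploid seeds. *SKP1* had 325 and 333 RPKM in triploid *adm-2*, 309 and 315 in triploid *suvh7-1*, 314 and 341 in triploid *peg2* and 331 and 361 in triploid seeds, against 245 and 253 RPKM in diploid seeds. Neither of them came near the limit of 8. Of 27 SKP1-like, cullin and cullin-associated genes above 1 RPKM in a library, 6 were raised and 3 were among the 89. The other 3 were *SK16*, *SK3* and *SK19*. *SK16* had 133 and 128 RPKM in triploid *adm-2*, 104 and 119 in triploid *suvh7-1*, 178 and 182 in triploid *peg2* and 129 and 135 in triploid seeds, against 4.91 and 6.15 RPKM in diploid seeds, and left the band upwards in *peg2*, at 1.36 times m of triploid seeds. *SK3* had 105 and 111 RPKM in triploid *adm-2*, 80.7 and 92.4 in triploid *suvh7-1*, 105 and 114 in triploid *peg2* and 124 and 136 in triploid seeds, against 3.39 and 5.16 RPKM in diploid seeds, and left it downwards in *suvh7-1*, at 0.664. *SK19* lay below the band in all 3 mutants, and its 2 triploid libraries were far apart, at 0.557 and 3.86 RPKM.

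**Figure D4:**
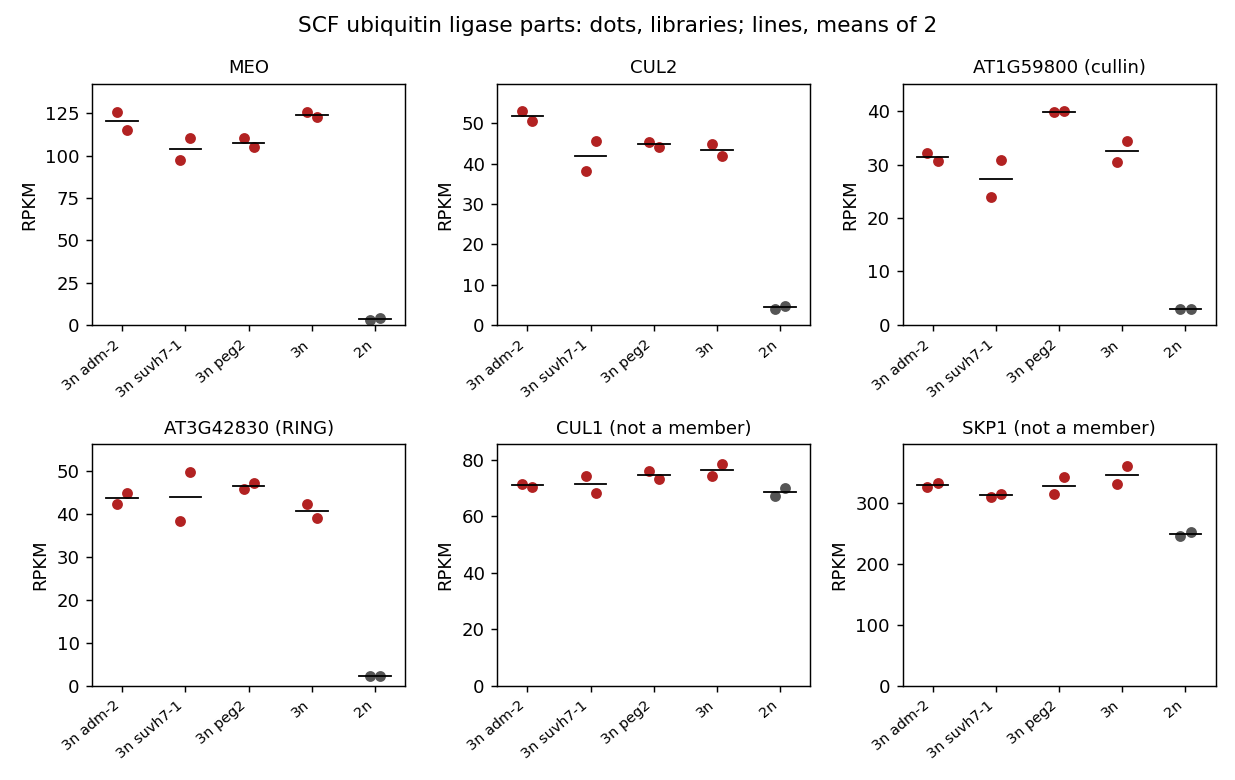
RPKM (y axis, from 0) of 4 SCF parts among the 89 genes and of *CUL1* and *SKP1*, which are not among them, in the 5 groups (x axis). Dots are libraries and lines are means of 2. *MEO*, *CUL2*, AT1G59800 and AT3G42830 are low only in diploid seeds, and *CUL1* and *SKP1* are high in all 5 groups.

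The other RING proteins were *ARI10* and *ARI11*, of the ARIADNE family of ubiquitin ligases, AT5G63740, AT1G77830, AT2G01810 and AT1G22670. *ARI10* had 13.7 and 13.5 RPKM in triploid *adm-2*, 8.0 and 9.82 in triploid *suvh7-1*, 10.6 and 11.8 in triploid *peg2* and 10.2 and 10.6 in triploid seeds, against 0.558 and 0.635 RPKM in diploid seeds. *ARI11* had 13 and 12 RPKM in triploid *adm-2*, 7.12 and 10.04 in triploid *suvh7-1*, 8.86 and 10.1 in triploid *peg2* and 9.49 and 12.7 in triploid seeds, against 0.203 and 0.278 RPKM in diploid seeds, and its triploid libraries were 28.7% of their mean apart, the widest gap of the 89 genes. The gap was 25.7% for AT4G02733 and 25.5% for AT4G15970, a sugar transferase, and the median over the 89 genes was 6.97%. AT1G77830, AT2G01810 and AT1G22670 had mean levels of 3.3, 3.27 and 5.83 RPKM in triploid seeds.

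The 19 products matched as transcription factors include AT1G22670 and AT2G01810, which are RING proteins, and AT1G48195, whose CCCH finger is of a kind that often binds RNA. The highest after AT1G48195 were *HDG8*, given above, and *NF-YC5*, a histone-fold subunit of the NF-Y factor that binds CCAAT. *NF-YC5* had 35.7 and 36.3 RPKM in triploid *adm-2*, 28.9 and 31.1 in triploid *suvh7-1*, 36.2 and 37.1 in triploid *peg2* and 33.7 and 40.2 in triploid seeds, against 1.42 and 0.671 RPKM in diploid seeds. Its *suvh7-1* libraries were below those of triploid seeds and the others overlapped. A second subunit of the same kind, *NF-YC8*, was lower, with 3.33 and 2.52 RPKM in triploid *adm-2*, 2.94 and 2.28 in triploid *suvh7-1*, 1.91 and 3.0 in triploid *peg2* and 2.85 and 3.12 in triploid seeds, against 0.251 and 0.109 RPKM in diploid seeds. The 13 genes for NF-Y subunit C, looked up after these had been seen, held 1 more raised gene.

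*BRC1*, a TCP factor known for holding back axillary buds, had 30.1 and 28.2 RPKM in triploid *adm-2*, 17.8 and 22.1 in triploid *suvh7-1*, 25.5 and 24.7 in triploid *peg2* and 20.7 and 24.5 in triploid seeds, against 1.05 and 1.19 RPKM in diploid seeds. Both *adm-2* libraries and both *peg2* libraries were above the triploid libraries, by a ratio of means of 1.29 and 1.11. AT2G27930, a PLATZ factor, had 29.2 and 25.9 RPKM in triploid *adm-2*, 18.1 and 25.9 in triploid *suvh7-1*, 26.8 and 30.3 in triploid *peg2* and 20.2 and 23.3 in triploid seeds, against 1.51 and 1.45 RPKM in diploid seeds, and AT5G54067, a B3 domain protein, had 35.9 and 34.7 RPKM in triploid *adm-2*, 34.1 and 39.8 in triploid *suvh7-1*, 23.6 and 30.2 in triploid *peg2* and 32.1 and 31 in triploid seeds, against 1.84 and 1.15 RPKM in diploid seeds. The order of the groups differed between them, with *peg2* highest in AT2G27930 and lowest in AT5G54067. AT2G41445, annotated as an AGAMOUS-like MADS-box protein, had 9.55 and 8.52 RPKM in triploid *adm-2*, 7.42 and 8.89 in triploid *suvh7-1*, 6.99 and 7.5 in triploid *peg2* and 6.96 and 7.41 in triploid seeds, against 0.537 and 0.65 RPKM in diploid seeds. The rest were AT4G04580, AT5G62110 and AT5G23650 (homeodomain-like), AT2G15740, AT5G56200 and AT5G54340 (C2H2 zinc fingers), AT5G42910 (bZIP), AT5G59230 and *ERF11*, with means in triploid seeds of 3.25 to 33.9 RPKM. Of 1560 tested genes matched by the transcription factor words, limma called 155 up and 236 down in triploid seeds, against 2534 up and 2644 down of all 26601. The words leave out AGAMOUS-like, auxin response factor and LOB, so these counts do not cover transcription factors as a whole.

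Regulators outside that list were *AFP1*, which binds the abscisic acid factor ABI5 and is the only gene here matched by the hormone words, *RR19*, a response regulator of the cytokinin type, and AT1G20240, annotated as a chromatin-binding protein related to SWI-SNF and the only gene matched by the chromatin words. *AFP1* had 8.14 and 9.21 RPKM in triploid *adm-2*, 6.9 and 9.99 in triploid *suvh7-1*, 8.85 and 8.36 in triploid *peg2* and 8.55 and 10.4 in triploid seeds, against 1.22 and 0.791 RPKM in diploid seeds. *RR19* had 14.9 and 15.5 RPKM in triploid *adm-2*, 13.7 and 14.9 in triploid *suvh7-1*, 11.5 and 12.9 in triploid *peg2* and 14.1 and 14.7 in triploid seeds, against 0.957 and 1.01 RPKM in diploid seeds, with both *peg2* libraries below the triploid libraries. AT1G20240 had 19.5 and 20.4 RPKM in triploid *adm-2*, 18 and 20.8 in triploid *suvh7-1*, 22.5 and 24.6 in triploid *peg2* and 19.2 and 19.2 in triploid seeds, against 1.34 and 1.21 RPKM in diploid seeds. Its ratio to triploid seeds was between 1.01 and 1.22 in the 3 mutants.

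The secreted cysteine-rich peptides were *LCR73*, *SCRL4*, *LCR8* and AT5G08505. *SCRL4*, related to the pollen coat ligand SCR of self-incompatibility, had 63.8 and 65.4 RPKM in triploid *adm-2*, 47.2 and 51.7 in triploid *suvh7-1*, 73.3 and 71.3 in triploid *peg2* and 61.1 and 64.1 in triploid seeds, against 2.14 and 2.97 RPKM in diploid seeds. Its *suvh7-1* libraries were the lowest and its *peg2* libraries the highest of the triploid groups. *LCR8* had 27 and 19.6 RPKM in triploid *adm-2*, 13.6 and 18.4 in triploid *suvh7-1*, 17.6 and 18.3 in triploid *peg2* and 17.3 and 18.7 in triploid seeds, against 0.314 and 0.818 RPKM in diploid seeds. Of the family as a whole, 133 of 392 genes tested were called up by limma (33.9%) and 28 down, and 69 of its 73 raised genes (94.5%) left the band in a mutant, beside 85.4% of all 610 raised genes. AT5G06020, of the plant self-incompatibility S1 family, was also among the 89, at a mean of 14.6 ± 1.04 RPKM in triploid seeds and 0.339 ± 0.00325 in diploid seeds (SD, n = 2).

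At the cell wall and surface, AT5G63230, *AGP24*, *ENODL11*, AT3G05741 and *BGAL7* were joined by AT2G43660, a second X8 protein, and by AT4G17215, of the Pollen Ole e 1 family. AT2G43660 had 88.3 and 76.8 RPKM in triploid *adm-2*, 65.9 and 74 in triploid *suvh7-1*, 78.6 and 70.6 in triploid *peg2* and 72.6 and 71.3 in triploid seeds, against 6.16 and 5.88 RPKM in diploid seeds. AT4G17215 had 63.5 and 65.8 RPKM in triploid *adm-2*, 72.2 and 74.9 in triploid *suvh7-1*, 66.9 and 79 in triploid *peg2* and 58.5 and 57.7 in triploid seeds, against 3.32 and 3.79 RPKM in diploid seeds. Its *suvh7-1* ratio, 1.26, was the highest of the 89 genes in that mutant. X8 proteins were chosen after seeing the genes and made up 2 of the 89, 8 of the other raised and 32 of all genes.

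In metabolism and transport, *CYP79A2*, which turns phenylalanine into its oxime, had 14.8 and 14.1 RPKM in triploid *adm-2*, 11.6 and 13.5 in triploid *suvh7-1*, 15 and 16.8 in triploid *peg2* and 15.7 and 12.3 in triploid seeds, against 0.944 and 1.4 RPKM in diploid seeds. *CYP71B25*, a cytochrome P450, was the lowest of the 89, with 2.3 and 2.54 RPKM in triploid *adm-2*, 1.79 and 1.9 in triploid *suvh7-1*, 3.16 and 2.9 in triploid *peg2* and 2.31 and 2.42 in triploid seeds, against 0.137 and 0.158 RPKM in diploid seeds. The kelch repeat proteins AT5G48980 and AT5G03020, matched by the word oxidase, had means of 15.9 and 11.8 RPKM in triploid seeds. *FOLB1*, a dihydroneopterin aldolase of folate synthesis, had 32.9 and 30.7 RPKM in triploid *adm-2*, 23.3 and 27.1 in triploid *suvh7-1*, 32.2 and 35.2 in triploid *peg2* and 31 and 35 in triploid seeds, against 0.673 and 0.73 RPKM in diploid seeds, lowest in *suvh7-1* among the triploid groups. AT3G25280, the second transporter, had 25.9 and 26.5 RPKM in triploid *adm-2*, 21.6 and 22.3 in triploid *suvh7-1*, 21.1 and 25.1 in triploid *peg2* and 23.3 and 19.9 in triploid seeds, against 2.41 and 2.28 RPKM in diploid seeds. *GRF13* (a 14-3-3 protein), *RAN4* (of the Ran GTPases), *PUM13* (a Pumilio RNA-binding protein), AT5G20440 (Mob1 family) and the leucine-rich repeat kinase AT1G51910 had ratios to diploid seeds of 26.4, 33.6, 9.29, 27.5 and 21.3. Products with no known role were 9 of the 89 (10.1%), 8.06% of other raised genes and 19.4% of all genes. The highest of them, AT4G28775, had 81.4 and 75 RPKM in triploid *adm-2*, 69.5 and 81.4 in triploid *suvh7-1*, 68.1 and 72.8 in triploid *peg2* and 66 and 61.3 in triploid seeds, against 2.95 and 3.45 RPKM in diploid seeds, with all 6 mutant libraries above the triploid libraries, and the next were AT5G06380 and AT5G13210, at means of 17.7 and 16.9 RPKM in triploid seeds.

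Of the 89 genes 87 code for proteins and AT1G21490 and AT3G42835 are pseudogenes. They lay on chromosomes 1 to 5 in numbers of 21, 18, 13, 9 and 28. Their median transcript length was 1124 bases and their median protein 302 amino acids, between the other raised genes (832.5 bases and 210.5 amino acids) and all genes (1507 and 354). Genes with a single exon made up 31.5%, 31.9% and 31.8%. The set held 4 pairs of close neighbours. AT1G61320 and AT1G61330, which encode FBD proteins, and *ARI10* and *ARI11* lie in tandem, each pair with 1 annotated gene between them, and AT3G42830 and AT3G42835 face each other, as do *MEO* and AT2G20170. AT2G20170 had 26.8 and 23.4 RPKM in triploid *adm-2*, 21.7 and 22.9 in triploid *suvh7-1*, 14.4 and 16.6 in triploid *peg2* and 22.4 and 18.5 in triploid seeds, against 1.2 and 1.68 RPKM in diploid seeds. It was lowest in *peg2* among the triploid groups, and *MEO* was lowest in *suvh7-1*.

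Some of these values may include reads of another gene. The authors kept at most 1 alignment per read, and 5 of the 89 genes share a stretch of at least 100 bases at 95% identity or more with another place. AT1G61320 and AT1G61330 share about 300 bases with each other (308 and 303 bases at 99.4% and 99.7%), *CUL2* shares 169 bases at 95.3% with AT1G43140, *ARI10* 195 at 95.9% with AT2G31770 and AT4G02733 121 at 97.5% with AT4G08535. How many reads of these stretches could be placed was not tested. The library kit is named without a strand setting, and 11 of the 89 genes overlap another annotated gene, always on the opposite strand. The longest such overlap is the 334 bases that AT2G20170 shares with *PIL5*. Without strand, reads from an overlap cannot be told apart between its genes.

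The rule was also applied to single replicates. On the replicate 1 libraries alone it chose 83 of 629 raised genes, and of these 83 genes 77 were raised and 45 (54.2%) stayed in the band in replicate 2, against 8.42% of the other genes raised in replicate 1. On the replicate 2 libraries alone it chose 98 of 618 raised genes, of which 51 (52.0%) stayed in the band in replicate 1, against 6.35% of the others. Both sets of libraries chose 45 genes in common. Among the 89, 58 were chosen by replicate 1 alone (65.2%) and 71 by replicate 2 alone (79.8%). The other raised genes had by the rule left the band in the replicate that chose, and the means of both replicates chose the 89. All these shares are therefore descriptions with no test. In *suvh7-1* 82 of the 89 genes (92.1%) were higher in replicate 2 than in replicate 1, by a median of 0.20 on the log2 scale, against 54.0% of 18383 genes with a mean of at least 1 RPKM. In triploid seeds 59.6% of the 89 and 77.9% of these genes were higher in replicate 2. The part of this difference between the *suvh7-1* libraries in the choice of genes was not tested, but the rule without replicate 1 of *suvh7-1* chose 99 genes and without replicate 2 it chose 74.

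Near the edges of the rule, members and non-members had like values. *CYP71B25* was the lowest member by m in triploid seeds, at 2.46, and AT5G02930 the first outside, at 1.92. AT5G54340 was just inside the ratio of 8, at 8.09, and AT1G48010 just outside, at 7.93. For *adm-2*, *ERF11* was inside the lower edge at 0.778 and AT5G24355 outside at 0.749, and AT1G65990 was inside the upper edge at 1.32 and AT4G18870 outside at 1.33. For *suvh7-1* the pairs were AT5G53840 at 0.757 and AT4G21010 at 0.746, and AT4G17215 at 1.26 and AT3G49450 at 1.45. For *peg2* they were AT1G51910 at 0.751 and AT5G54990 at 0.742, and AT1G27250 at 1.32 and AT1G64035 at 1.33. The narrower band from 0.8 to 1.25 kept 46 of the 89 genes.

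None of the 89 was among the 16 *PEGs* of the study, 8 of which were raised, where 14.6% of all raised genes were among the 89. The 8 include *ADM*, *SUVH7* and *PEG2*, which left the band in their own mutants, at 0.104, 0.279 and 0.0662 times m of triploid seeds. Nothing is read from this count. None of the 89 was in the lists of tissue markers. Endosperm markers (8 genes, *PHE1* the highest) summed to 166 and 168 RPKM in *adm-2*, 127 and 124 in *suvh7-1*, 143 and 139 in *peg2* and 170.3 and 180.4 in triploid seeds, against 20.9 and 22.8 in diploid seeds. In triploid seeds 7 of the 8 were above diploid seeds in both libraries, and *RGE1* was below. *PHE1* made up most of the sum. Without it the other 7 came to 40.01 and 38.4 RPKM in *adm-2*, 25.8 and 26.3 in *suvh7-1*, 36.5 and 32.5 in *peg2* and 36.8 and 45.3 in triploid seeds, against 19.97 and 22.1 in diploid seeds. *AGL62*, *PHE1*, *WRKY10* and *FWA* are themselves among the raised genes, at 25.2, 145, 24.1 and 28.8 times m of diploid seeds. In *suvh7-1* they were at 0.306, 0.741, 0.140 and 0.466 times m of triploid seeds. The endosperm sums, with or without *PHE1*, therefore cannot be read as tissue makeup alone. Pollen markers (17 genes) summed to 165 and 171, 154 and 142, 181 and 188, and 184 and 191 RPKM in the same groups, against 128 and 133 in diploid seeds, mostly from *LLG2* and *TUA1*. In triploid seeds 13 of the 17 were above diploid seeds in both libraries and 4 below. Of the 17, 9 and 11 were under 1 RPKM in the triploid libraries and 12 and 11 in the diploid libraries. The share of all genes that separate in this way was not counted, so nothing is read from the counts of markers in this paragraph. *VGD1* had 9.42 and 2.91 RPKM and *PGA4* 11.4 and 6.61 in triploid seeds, against 0.153 and 1.11 for *VGD1* and 0.196 and 1.65 for *PGA4* in diploid seeds, and the sperm histone *MGH3* was at 0 in both *adm-2* and both diploid libraries. Embryo markers (6 genes) summed to 172 and 179, 178 and 192, 125 and 143, and 147 and 145 RPKM, against 199.9 and 208 in diploid seeds. In triploid seeds 5 of them, *LEC1* and *HB-3* included, were below diploid seeds in both libraries and *ATML1* was above. Seed coat markers (5 genes) summed to between 1156 and 1285 RPKM in the 8 triploid libraries, against 1205 and 1352 in diploid seeds. The endosperm sum was thus higher in triploid than in diploid seeds, by much less without *PHE1*, and among the triploid groups it was lowest in *suvh7-1* with or without *PHE1*. The part of these markers in the levels of the 89 genes was not tested, and in whole seeds more cells of a type and more RNA per cell cannot be told apart.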

How the data were processed

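RNA of whole seeds was sequenced in 10 libraries, 2 per cross. After quality trimming, the authors aligned the reads to TAIR10 (TopHat2 2.0.10, no read placed more than 1 time). They deposited a single table of RPKM for 33602 genes. The tool behind the RPKM values is not given in the sources used here. Of the genes 32835 were matched by locus to the TAIR10.1 annotation of RefSeq, which gave coordinates, products and upstream sequences.

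The rule was applied to the deposited values. The 89 genes, the gene lists and the groups of products were chosen with earlier results of these data known. Fold changes are differences of mean log2(RPKM + 0.1), which understates those of low genes. Calls came from the rank product (2-class, unpaired, 100 permutations, genes above 0 in at least 1 library) written anew in Python 3.11.15 (numpy 2.4.6, pandas 2.3.3, scipy 1.17.1), and from limma 3.58.1 in R 4.3.3 (trend, all 5 groups, genes above 0 in at least 2 libraries, Benjamini-Hochberg adjustment), both over the whole table. All 89 genes passed both filters. Both tests were tried on simulated data of 28055 genes, with 200 changed between triploid and diploid seeds. The rank product recovered 183 with 0 false calls and limma 200 with 5. Far fewer genes were changed there than limma found between the real seeds (2534 higher and 2644 lower in triploid). The simulated recovery therefore cannot be read as that of the real table, where the rank product took 3 of the 89. Near-identical stretches were found with blastn 2.17.0, and figures were drawn with matplotlib 3.10.9.

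Named genes were the 8 highest in triploid seeds, the 6 with the largest ratio, the 4 steadiest across mutants, the 4 with the widest gap between triploid libraries (*ARI11*, AT1G12190, AT4G02733 and AT4G15970), up to 4 genes of each product group (the 3 highest of larger groups), the genes beside each threshold and the mutated genes. Others were named after their values had been seen. The 3 raised genes nearest to the band from outside were AT5G24355, AT1G64035 and AT4G18870. Replicate numbers do not pair the libraries: deviations of same-numbered libraries correlated across 18383 genes with Pearson's r of 0.01, -0.07, -0.09 and -0.17 for triploid, *adm-2*, *suvh7-1* and *peg2* comparisons. Alternatives were other pseudocounts, size factors, bands, ratios, filters and tests, a replicate block, and leaving out each library.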

Additional observations from a re-analysis of the deposited data

How the results depend on the processing

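How many genes the rule takes depends on where its limits are set. Against 89 genes, a pseudocount of 1 gave 54, a band from 0.8 to 1.25 gave 46, a band from 0.67 to 1.5 gave 167, a ratio to diploid seeds of at least 4 gave 140 and one of at least 16 gave 46. Of the 54 genes at a pseudocount of 1, 50 were among the 89. A pseudocount of 0.01 gave 92, size factors gave 112, and leaving out 1 library gave 74 to 99. With replicate 1 or replicate 2 left out of every group, added after seeing the data, it gave 98 and 83. The count of the 89 called up in triploid seeds by the rank product, 3, became 0 at a pfp under 0.01, 8 and 1 at pseudocounts of 1 and 0.01, 1 among genes with a mean of at least 1 RPKM and 5 with no filter. It was 89 with limma, also with a replicate block. Leaving out 1 library gave 0 to 0, where a lone library stands for its group. The counts in the mutants were 0 under all alternatives, as the band requires.

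The median log2 fold change in triploid seeds, 4.07, was 3.08 and 4.20 at pseudocounts of 1 and 0.01 and 3.95 to 4.12 with 1 library left out. In *adm-2* the median of 0.18 became 0.073 with size factors and was 0.14 to 0.20 with 1 library left out. In *suvh7-1* the median of -0.18 ran from -0.24 to -0.083, this last without replicate 1 of *suvh7-1*, and in *peg2* the median of 0.08 became 0.11 with size factors and was 0.040 to 0.095 with 1 library left out. The cause of these shifts was not tested. The replicate block in the rank product left the calls at 3 in triploid seeds and 0 in the mutants, and a crossed pairing for *peg2*, added after seeing the data, gave 0. A pair of libraries gives little on the spread of any 1 gene, and in diploid seeds the lowest of the 89 genes rest on a few reads.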
